A study of Mus musculus with 6 samples.

Results

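The semaphorins, ephrins, Slits and netrins are signals that tell growing axons, migrating cells and forming vessels where to go, and each family acts through receptors of its own. The genes of these ligands and receptors were described here in cultures of mesenchymal stem cells (MSCs) of mice bred to lack the RNA methyltransferase PCIF1 in limb mesenchyme and of their controls. They were chosen by gene symbol, with earlier results of these data known: Sema3 to Sema7, plexins, neuropilins, ephrins, Eph receptors, Slits, Robo receptors, netrins 1 to 5 and Unc5 receptors. The rule found 65 genes among the 20071 Ensembl IDs of the count table, of which 34 belong to ligand families and 31 to receptor families.

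MSCs are stromal cells that can form osteoblasts, the cells that make bone. They were taken from the femurs of 6-week-old mice on the C57BL/6J background and kept for 7 days in osteogenic medium, with 100 nM dexamethasone, 5 mM β-glycerophosphate and 50 µg/mL ascorbic acid. The control group, labelled WT, came from Pcif1fl/fl mice, whose Pcif1 gene carries loxP sites around exons 5 to 7. The other group, labelled Pcif1 CKO, came from Prrx1-Cre;Pcif1fl/fl littermates, so that both groups carry the floxed alleles and the groups differ in the Cre transgene. Prrx1-Cre is active in limb mesenchyme, and other cells of a marrow culture are outside its reach. Poly(A) RNA was sequenced from 3 libraries of each group, and whether they came from separate mice or cultures is not given in the sources used here, so that p-values measure the spread between libraries, which may be technical. The design text speaks of duplicates, whereas the labels show 3 libraries per genotype. A chi-square per gene between libraries of a group, which is about 1 for counting noise alone, was 2.83 for Prrx1-Cre;Pcif1fl/fl replicates 1 and 3. It was 98.6 and 82.9 for Pcif1fl/fl replicate 3 with replicates 1 and 2, and 9.62 to 10.1 for every other pair, so that each library was counted.

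The libraries held between 20258209 and 28227696 counts. Pcif1 itself lay between 39.3 and 42.8 CPM (reads on a gene relative to all counted reads) in the controls and between 37.8 and 39.7 CPM in the other group, and the groups overlapped. Counts over the whole gene include reads from exons outside the deleted stretch and do not check the deletion, so the genotypes rest on the labels. Pcif1fl/fl replicate 3 stood apart, with 3.63% of its counts from mitochondrial genes against 1.40% to 1.57% in the other libraries. Xist lay between 232 and 443 CPM in the controls and between 0.722 and 1.79 CPM in the other group, and Ddx3y was lower in every control library, so that the sex mix of the groups and the genotype cannot be told apart. Macrophage markers were abundant in both groups. Their 9 listed genes summed to 27784 to 29909 CPM in the controls and 27299 to 30761 CPM with Prrx1-Cre, led by Lyz2. The mesenchymal markers Col1a1, Pdgfrb and Prrx1 were present in every library, and so were the osteoblast markers Spp1, Ibsp and Alpl. Spp1 held 9543 to 16544 CPM in the controls and 11786 to 19992 CPM in the other group, Ibsp 399 to 502 and 168 to 205 CPM, and Alpl 86.0 to 97.7 and 39.3 to 46.1 CPM. The late osteoblast markers Bglap and Bglap2 reached 0.249 and 1.69 CPM at most.

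In bone, several of these systems carry messages between cells. Semaphorins bind plexins, and most of the secreted class 3 semaphorins also need a neuropilin as a co-receptor. Sema3a is known for protecting bone by restraining osteoclasts and favouring osteoblasts. Ephrins are ligands tied to the membrane, and a contact between an ephrin and an Eph receptor signals into both cells. Efnb2 on osteoclasts and Ephb4 on osteoblasts are the classic pair of this kind. Slits are large secreted proteins read by Robo receptors, and netrins are laminin-related secreted proteins read by Dcc, neogenin and the Unc5 receptors.

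PCIF1 adds a methyl group to an adenosine that stands next to the cap, the first base of the transcript, so the start of a member says whether it could carry this mark at all. The counts do not measure the mark. The start sites of all 9 called members that are placed at the same base in GENCODE and RefSeq are shown so that this first base can be read beside the direction of change. Each window runs 5′ to 3′ on the gene's strand from RefSeq's promoter table on GRCm38.p6, with 20 bases before the start and 10 from it, and the capital marks the first transcribed base.
Sema5a: agctctgggcccgctcacccAgcgctggtc
Ephb4: ggccaggcgccgcccgactcAgtctcgact
Unc5b: agcgcgcggcggcgctgggcAttgtggccg
Plxnd1: cggggagatgggctgtgggcGtggtctcca
Efna2: tccagcggggacaaaggcgaGgggagcccc
Unc5a: ccggcccgctccccggctgcGggctccgcg
Sema4f: tcctccattggttcctttgtGagtgggagg
Efnb2: tctgacagcgcgcccggcgcGctgactctc
Ntn4: atcccatggaactgcccatgGagaaggacg
The windows on the plus strand lie at chr15:32244793-32244822 (Sema5a), chr5:137350089-137350118 (Ephb4), chr10:80179462-80179491 (Efna2), chr13:54949391-54949420 (Unc5a) and chr10:93641029-93641058 (Ntn4). Those on the minus strand lie at chr10:60831572-60831601 (Unc5b), chr6:115994996-115995025 (Plxnd1), chr6:82939760-82939789 (Sema4f) and chr8:8661233-8661262 (Efnb2). Of the 3 that start with A, Sema5a and Ephb4 were lower in Prrx1-Cre;Pcif1fl/fl and Unc5b was higher. Of the 6 that start with G, Plxnd1, Efna2 and Unc5a were lower and Sema4f, Efnb2 and Ntn4 were higher, so that both start bases occurred in both directions. In GENCODE's annotation 14 of the 59 members tested started with A, or 23.7%, against 27.0% of 13730 genes tested. Among the called members these were 4 of the 12 lower and 2 of the 9 higher. With the RefSeq start nearest to the GENCODE start, 18 of 56 members with a start in that table began with A, against 34.4% of its 32851 windows, and the higher members then held 4 such starts among 9. Annotated starts are not measured starts, and only 22 of the 56 were placed at the same base in both annotations.

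Of the 65 members, 59 passed edgeR's expression filter and were tested. Sema3g, Sema5b, Epha5, Epha8, Ephb1 and Robo3 did not, and Epha8 and Ephb1 held 3 counts or fewer in every library. Prrx1-Cre;Pcif1fl/fl MSC cultures had 12 members lower and 9 higher than the controls at an adjusted p under 0.05, by the quasi-likelihood test of edgeR. The p-values were adjusted by the Benjamini-Hochberg method over all 13733 genes tested. Over all genes the same call was made for 4.51% lower and 2.88% higher, or 7.40% in either direction, and for the members the share was 35.6%. Leaving out 1 library at a time gave 6 to 13 lower and 3 to 14 higher members, with the fewest calls, 9, without Prrx1-Cre;Pcif1fl/fl replicate 2 and the most, 27, without Pcif1fl/fl replicate 3. With a 2-fold change as well, 3 members were lower, Sema5a, Sema6d and Robo2, beside 2.50% of all genes. Another 4 were higher, Sema3a, Sema3d, Sema4f and Epha2, beside 1.03% of all genes, so that 7 members passed in either direction, beside 3.53% of all genes. The calls went both ways: 30 members had a log2 fold change below 0 and 29 above it, and the median was -0.012 over the members and 0.0017 over all genes tested. Among the 59 members tested, the groups did not overlap for 18 that were lower and 15 that were higher, beside 15.7% and 15.0% of all genes tested. In bulk RNA, fewer cells of a type and less RNA per cell cannot be told apart. All levels below are TMM-scaled CPM in replicates 1, 2 and 3 of each group, each adjusted p is from that edgeR fit, and positions are on GRCm38.

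**Figure D1:**
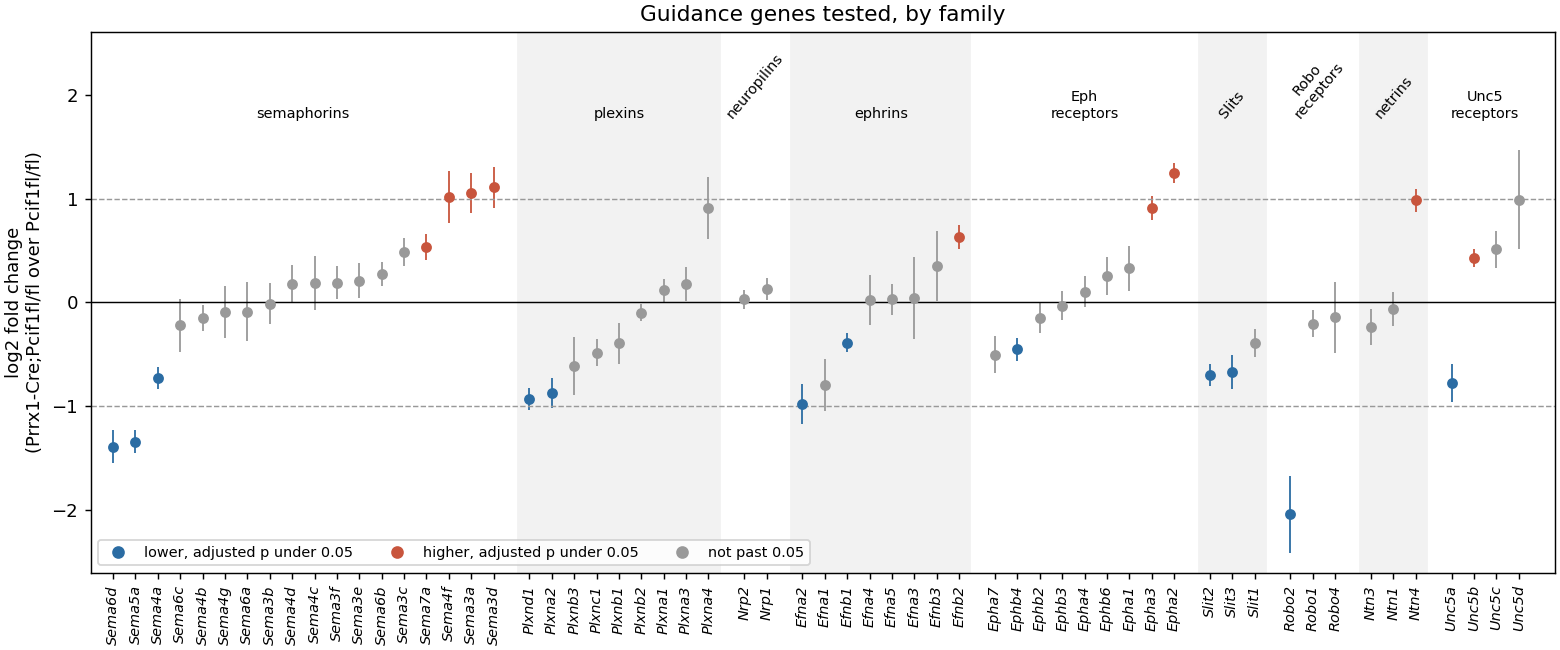
Log2 fold change of the 59 guidance genes tested, Prrx1-Cre;Pcif1fl/fl over Pcif1fl/fl, grouped by family; points are the fitted values, bars the standard error (3 libraries per group), dashed lines a 2-fold change. Called genes lie on both sides of 0, from Robo2 at -2.04 to Epha2 at 1.25, and the neuropilins lie near 0.

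Sema3a and Sema3d were the secreted class 3 semaphorins called, and both were higher. Of 7 members 6 were tested, and 2 were higher and 0 lower, with 0 lower also at an unadjusted p under 0.05 and by DESeq2 and limma-voom. Beside the 4.51% lower and 2.88% higher of all genes, a count of 0 among 6 is near the background. Sema3a (ENSMUSG00000028883, chr5:13125414-13602565) stood at 14.9, 14.9 and 22.6 CPM in Pcif1fl/fl and at 32.0, 41.9 and 34.9 CPM with Prrx1-Cre. Every Prrx1-Cre;Pcif1fl/fl library lay above every control, and Pcif1fl/fl replicate 3 was the highest control. The log2 fold change of Sema3a was 1.05 (SE 0.19, edgeR adjusted p = 0.0123). Sema3d, which lies close by (chr5:12383385-12588948), had 6.03, 6.17 and 8.86 CPM in the controls and 12.6, 15.8 and 17.0 CPM in the other group. It was higher by 1.11 on the log2 scale (SE 0.19, edgeR adjusted p = 0.0113), with no overlap of the groups. The other 4 class 3 genes tested had log2 fold changes from -0.012 to 0.48, the highest of which, Sema3c, did not pass (edgeR adjusted p = 0.0735). DESeq2, the GC and length correction and the fit without Pcif1fl/fl replicate 3 called Sema3c higher. Sema3g, which failed the expression filter, held 0.430 to 0.625 CPM in the controls and 0.180 to 0.337 CPM in the other group. Leaving out Pcif1fl/fl replicate 2 or Prrx1-Cre;Pcif1fl/fl replicate 2 ended the call of both Sema3a and Sema3d, and leaving out Prrx1-Cre;Pcif1fl/fl replicate 3 that of Sema3d, with adjusted p up to 0.0645 and 0.0593. Over all 6 libraries left out in turn, the log2 fold changes ran from 0.94 to 1.29 and from 1.01 to 1.31.

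The semaphorins that are held in the membrane moved in both directions. Sema6d, a class 6 transmembrane semaphorin and a ligand of the A-type plexins (chr2:124089969-124667770), was lower past 2-fold. It stood at 35.4, 32.8 and 45.5 CPM in the controls and at 12.9, 16.5 and 14.0 CPM with Prrx1-Cre, a log2 fold change of -1.39 (SE 0.16, edgeR adjusted p = 0.00134). Sema5a carries thrombospondin repeats in its extracellular part (chr15:32244810-32696341). Its 3 control libraries held 51.8, 50.5 and 58.2 CPM and the other 3 held 23.0, 20.2 and 20.1 CPM. This change, -1.34 on the log2 scale (SE 0.11, edgeR adjusted p = 0.000288), had the smallest p among the semaphorins. Sema4a, a transmembrane semaphorin known from immune cells (chr3:88435959-88461182), fell from 62.1, 65.2 and 57.2 CPM to 38.8, 33.8 and 38.6 CPM. Its log2 fold change was -0.73 (SE 0.10, edgeR adjusted p = 0.00421). The microRNA gene Mir7011 shares 1.35% of the exonic length of Sema4a on the same strand. All 3 genes had no overlap between the groups and stayed called under each of 14 alternative analyses.

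Sema4f and Sema7a were higher in Prrx1-Cre;Pcif1fl/fl, and both calls were close to the threshold. Sema4f, a transmembrane semaphorin (chr6:82911885-82939769), was a low-count gene at 2.31, 2.94 and 1.54 CPM in the controls and 4.19, 4.63 and 4.96 CPM in the other group (log2 fold change 1.02, SE 0.25, edgeR adjusted p = 0.0452). Sema7a is anchored to the membrane by a lipid and signals through integrins and Plxnc1 (chr9:57940112-57962865). It had 27.9, 27.7 and 25.5 CPM in the controls and 33.5, 44.5 and 39.0 CPM in the other group (log2 fold change 0.53, SE 0.13, edgeR adjusted p = 0.0402). Sema4d, the osteoclast-derived semaphorin that restrains osteoblasts, had the highest level per kb of exon in the family. Its values of 95.6, 101 and 142 CPM in the controls overlapped with 147, 105 and 132 CPM in the other group (log2 fold change 0.18, SE 0.18, edgeR adjusted p = 0.609). Without Pcif1fl/fl replicate 3, Sema4d was called higher (log2 fold change 0.39, adjusted p = 0.0167). The call of Sema7a was lost without any library other than Pcif1fl/fl replicate 3, that of Sema4f without any other than Pcif1fl/fl replicates 2 and 3, and both with total-count scaling. Their adjusted p then reached 0.164 and 0.173, and the log2 fold changes ran from 0.42 to 0.63 and from 0.80 to 1.26. Over all 18 semaphorins tested, 3 were lower and 4 higher, beside 4.51% and 2.88% of all genes.

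**Figure D2:**
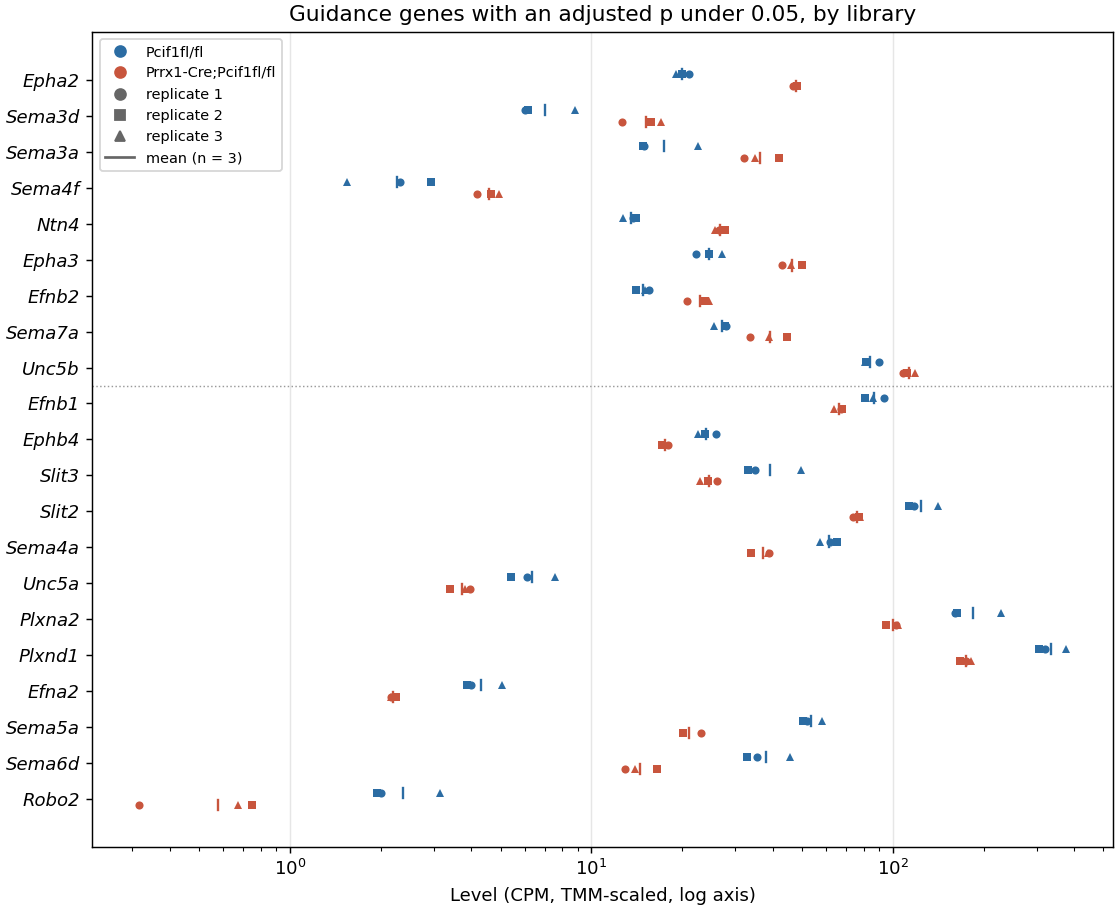
Level of each of the 21 guidance genes with an adjusted p under 0.05, in TMM-scaled CPM on a log axis, with 1 point per library and a bar at the mean of 3 libraries; higher genes above the dotted line, lower genes below it. In all 21 genes the 3 Prrx1-Cre;Pcif1fl/fl libraries lie on 1 side of the 3 Pcif1fl/fl libraries, and Pcif1fl/fl replicate 3 (blue triangle) is often the control farthest from the others.

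Plxnd1 and Plxna2 were the plexins called, and both of these semaphorin receptors were lower. Of 9 plexins 2 were lower and 0 higher by edgeR, DESeq2 called 0 higher as well, and Plxna4 alone was higher at an unadjusted p under 0.05. Over all genes 4.51% were lower and 2.88% higher, so a count of 0 among 9 is near the background. Plxnd1, the receptor that reads Sema3e in developing vessels (chr6:115954811-115995005), stood at 320, 305 and 376 CPM in the controls and at 175, 167 and 182 CPM with Prrx1-Cre. The log2 fold change of Plxnd1 was -0.93 (SE 0.10, edgeR adjusted p = 0.00124). Plxna2, a receptor for class 6 semaphorins and, with a neuropilin, for class 3 semaphorins (chr1:194618218-194816869), had 161, 163 and 228 CPM in the controls and 103, 94.8 and 104 CPM in the other group. It fell by 0.87 on the log2 scale (SE 0.14, edgeR adjusted p = 0.00780). For both genes Pcif1fl/fl replicate 3 was the highest control, and without it the log2 fold changes were -0.83 and -0.69 and both were still called. Leaving out Prrx1-Cre;Pcif1fl/fl replicate 2 ended the call of Plxna2 (adjusted p = 0.0544).

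The remaining plexins did not pass. Plxnb2, the most abundant plexin per kb, held 827, 784 and 763 CPM in the controls and 735, 747 and 735 CPM in the other group, which did not overlap but differed by only -0.099 on the log2 scale (SE 0.082, edgeR adjusted p = 0.544). Plxnc1, the receptor of Sema7a, had 109, 130 and 151 CPM against 98.6, 84.3 and 95.7 CPM and missed the threshold (log2 fold change -0.48, SE 0.13, edgeR adjusted p = 0.0613). DESeq2, total-count scaling and the fit without an expression filter called Plxnc1 lower, as did leaving out Pcif1fl/fl replicate 1 or 3. Plxna3 and Plxnb3 lie on chromosome X, with log2 fold changes of 0.18 and -0.61 and overlapping groups.

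The neuropilins, co-receptors that class 3 semaphorins share with VEGF, were among the most abundant guidance genes and neither was called by edgeR, DESeq2 or limma-voom. Nrp1 (chr8:128358604-128503363) had 337, 339 and 350 CPM in the controls and 347, 429 and 349 CPM with Prrx1-Cre, a log2 fold change of 0.13 (SE 0.10, edgeR adjusted p = 0.524). Nrp2 (chr1:62703285-62818695) had 518, 523 and 594 CPM in the controls and 564, 530 and 576 CPM in the other group, a log2 fold change of 0.031 (SE 0.093, edgeR adjusted p = 0.881). Prrx1-Cre;Pcif1fl/fl replicate 2 was the highest library for Nrp1 and Pcif1fl/fl replicate 3 the highest for Nrp2. Both groups overlapped for each gene.

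In the ephrin family, ephrin-B genes changed in opposite directions. Efnb2 (chr8:8617434-8661242) was at 15.5, 14.0 and 15.1 CPM in the controls and at 20.7, 23.8 and 24.5 CPM with Prrx1-Cre, and rose by a log2 fold change of 0.63 (SE 0.12, edgeR adjusted p = 0.0151). Efnb1, which when mutated causes craniofrontonasal dysplasia (chrX:99136130-99148991), had the highest level per kb of the ephrins. It held 93.7, 81.1 and 85.7 CPM in the controls and 67.4, 67.6 and 64.0 CPM in the other group (log2 fold change -0.39, SE 0.092, edgeR adjusted p = 0.0404). Efnb1 lies on chromosome X, where 7.02% of 456 genes tested were lower and 3.29% higher, against 4.44% and 2.85% of 13258 autosomal genes; the part of the sex mix in its change was not tested. Among the ephrins of the A class, which are held by a lipid anchor, Efna2 (chr10:80179482-80190010) was lower, at 3.97, 3.86 and 5.06 CPM against 2.16, 2.24 and 2.16 CPM. Its log2 fold change was -0.97 (SE 0.19, edgeR adjusted p = 0.0190). Of the 8 ephrins tested 2 were lower and 1 higher, beside 4.51% and 2.88% of all genes. The other 5 ephrins were not called, with log2 fold changes from -0.79 to 0.35. The calls of Efna2, Efnb1 and Efnb2 were lost without Prrx1-Cre;Pcif1fl/fl replicate 2 or 3, those of Efna2 and Efnb1 also without replicate 1 of that group, that of Efnb1 without Pcif1fl/fl replicate 1 or 2 and that of Efnb2 without Pcif1fl/fl replicate 2. Their adjusted p then reached 0.0955, 0.204 and 0.0932, and the log2 fold changes ran from -1.05 to -0.84, from -0.43 to -0.33 and from 0.58 to 0.71.

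Among the Eph receptors, the receptor tyrosine kinases of the ephrins, 2 were higher and 1 lower. Of 5 EphA receptors tested 2 were higher and 0 lower by edgeR, and of 4 EphB receptors tested 1 was lower and 0 higher. DESeq2 and limma-voom also gave 0 in both places, and at an unadjusted p under 0.05 the gene added was Epha7, which was lower. Beside the 4.51% lower and 2.88% higher of all genes, a count of 0 among 4 or 5 is near the background, and whether the classes differ was not tested. Epha2 (chr4:141301240-141329384) had the smallest p of all guidance genes. Its values of 19.1 to 21.1 CPM in the 3 controls stood against 46.7, 48.1 and 48.0 CPM with Prrx1-Cre, a log2 fold change of 1.25 (SE 0.096, edgeR adjusted p = 0.000228). Epha3 (chr16:63543534-63864175) rose in the same libraries, from 22.2, 24.5 and 27.1 CPM to 42.9, 50.0 and 46.0 CPM (log2 fold change 0.91, SE 0.12, edgeR adjusted p = 0.00231). Both stayed called under each of 14 alternative analyses. Ephb4 (ENSMUSG00000029710, chr5:137350109-137378669) was lower, at 25.8, 23.8 and 22.5 CPM in the controls and 18.0, 17.1 and 17.6 CPM in the other group. Its antisense neighbour Zan shares 0.711% of its exonic length. The groups of Ephb4 did not overlap and its log2 fold change was -0.45 (SE 0.11, edgeR adjusted p = 0.0412). This call was lost without any library other than Pcif1fl/fl replicate 3 and without the expression filter, with adjusted p up to 0.178 and log2 fold changes between -0.49 and -0.40. The other 6 Eph receptors tested were not called, and their log2 fold changes ran from -0.50 to 0.33.

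Slit2, Slit3 and Robo2 were the Slits and Robo receptors called, and all 3 were lower. Of the 6 genes tested 3 were thus lower, beside 4.51% of all genes. By edgeR, DESeq2 or limma-voom 0 were higher, also at an unadjusted p under 0.05, which is near the background of 2.88% of all genes. Slit2 (chr5:47983138-48307733) had 118, 113 and 141 CPM in the controls and 73.6, 77.4 and 77.6 CPM with Prrx1-Cre, a log2 fold change of -0.70 (SE 0.11, edgeR adjusted p = 0.00541). Slit3, an osteoclast and stromal product known to act on bone vessels and osteoblasts (chr11:35121224-35708507), had 34.8, 33.0 and 49.4 CPM in the controls and 26.2, 24.4 and 22.9 CPM in the other group. It fell by 0.67 on the log2 scale (SE 0.16, edgeR adjusted p = 0.0446). Slit1, the third Slit, had 11.6, 11.8 and 12.2 CPM against 7.88, 9.81 and 9.48 CPM; its groups did not overlap, but it did not pass (log2 fold change -0.39, SE 0.14, edgeR adjusted p = 0.138). Pcif1fl/fl replicate 3 was the highest control for all 3 Slits. Without it Slit2 and Slit3 were called with log2 fold changes of -0.60 and -0.46, whereas the call of Slit3 was lost on leaving out any of the other 5 libraries, with limma-voom and with a correction for GC content and length, with adjusted p up to 0.183.

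Robo2 (chr16:73891839-74411825) had the largest log2 fold change of the guidance genes and rested on few reads. It held 46, 53 and 88 counts, or 2.01, 1.95 and 3.16 CPM, in the controls and 7, 15 and 14 counts, or 0.315, 0.747 and 0.674 CPM, in Prrx1-Cre;Pcif1fl/fl. The fitted value was -2.04 (SE 0.37, edgeR adjusted p = 0.0134). Leaving out Prrx1-Cre;Pcif1fl/fl replicate 1 or 3 ended the call, with adjusted p up to 0.0550, and the log2 fold change ranged from -2.26 to -1.73 over the libraries left out. Robo1, the most abundant Robo receptor per kb, had 33.6, 32.2 and 42.2 CPM in the controls and 29.1, 30.7 and 33.9 CPM in the other group (log2 fold change -0.20, SE 0.13, edgeR adjusted p = 0.425). The groups of Robo1 overlapped, and Robo4, the endothelial Robo receptor, was not called either.

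Ntn4 was the only netrin called of 3 tested, beside 7.40% of all genes called in either direction. This basement-membrane netrin (chr10:93640681-93747207) had 13.8, 14.1 and 12.8 CPM in the controls and 26.6, 27.8 and 25.8 CPM with Prrx1-Cre. The log2 fold change of Ntn4 was 0.98 (SE 0.11, edgeR adjusted p = 0.00117), and it stayed called under each of 14 alternative analyses. Ntn1 and Ntn3 had log2 fold changes of -0.065 and -0.24 and were not called.

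The Unc5 receptors, repellent receptors of netrins that also act as dependence receptors, gave calls in both directions. Of 4 tested, 1 was lower and 1 higher, beside 4.51% and 2.88% of all genes. Unc5b (chr10:60762593-60831581) made up most of the family's level per kb. It had 89.8, 81.3 and 80.7 CPM in the controls and 108, 112 and 119 CPM with Prrx1-Cre (log2 fold change 0.43, SE 0.090, edgeR adjusted p = 0.0253). Unc5a (chr13:54949411-55006018) was lower, at 6.11, 5.40 and 7.57 CPM against 3.96, 3.38 and 3.80 CPM (log2 fold change -0.77, SE 0.18, edgeR adjusted p = 0.0393). The antisense gene Hk3 shares 0.816% of the exonic length of Unc5a. Unc5c and Unc5d did not pass, although their groups did not overlap either, with log2 fold changes of 0.51 and 0.99. The call of Unc5a was lost with limma-voom, with the GC and length correction and without any library other than Pcif1fl/fl replicate 3, and that of Unc5b without any other than Pcif1fl/fl replicates 1 and 3, with adjusted p up to 0.149 and 0.150. Their log2 fold changes ran from -0.88 to -0.62 and from 0.39 to 0.48.

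Levels of different genes can be added once they are given as CPM per kb of exon. Summed in this way over a family, the control order from the highest was plexins, neuropilins, semaphorins, ephrins, Eph receptors, Unc5 receptors, Slits, netrins and Robo receptors. The Unc5 receptors and Slits, at 15.2 ± 0.767 and 13.3 ± 2.12, did not differ beyond their spread and stood in the opposite order in Pcif1fl/fl replicate 3. With Prrx1-Cre the netrins stood next to the Slits, at 8.78 ± 0.281 and 8.57 ± 0.148, and these neighbours did not differ beyond their spread. The plexins summed to 222 ± 10.5 (SD, n = 3) in the controls and 188 ± 6.36 in the other group, a ratio of 0.847. Plxnb2 gave 48.3% of their sum and went from 102.5 to 95.7, whereas Plxnd1 went from 45.7 to 24.0 and Plxna1 from 46.1 to 50.1. Of the 9 plexins, 6 had a log2 fold change below 0 and 3 above it. The neuropilins summed to 81.0 ± 4.26 and 85.4 ± 2.87 and the semaphorins to 62.7 ± 1.07 and 64.4 ± 1.78, and for both families the groups overlapped. The semaphorin sums differed by a ratio of 1.03, although 7 semaphorins were called.

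The sums of the ephrins and of their receptors differed in opposite directions, through few genes in each family. The ephrins summed to 37.0 ± 2.54 CPM per kb in the controls and 31.0 ± 1.33 in the other group, a ratio of 0.837, and the Eph receptors to 18.4 ± 0.463 and 25.6 ± 0.407, a ratio of 1.39. Efnb1, on chromosome X, gave 65.3% of the ephrin sum and went from 25.2 to 19.2 CPM per kb. Of the 8 ephrins, 3 had a log2 fold change below 0 and 5 above it, with a median of 0.026. Epha2 gave 32.9% of the Eph receptor sum and went from 4.29 to 10.2 CPM per kb, and Epha3 went from 2.83 to 5.33. Of the 9 Eph receptors tested, 4 had a log2 fold change below 0 and 5 above it. In the smaller families 1 gene carried most of the sum, Unc5b with 90.9%, Robo1 with 80.6% and Ntn4 with 75.8%, while Slit3 gave 47.9% of the Slit sum. The netrins went from 5.41 ± 0.333 to 8.78 ± 0.281 (ratio 1.62) and the Unc5 receptors from 15.2 ± 0.767 to 19.4 ± 0.881 (ratio 1.27). Slits went the other way, from 13.3 ± 2.12 to 8.57 ± 0.148 (ratio 0.643), as did Robo receptors, from 2.74 ± 0.395 to 2.31 ± 0.0326 (ratio 0.843). In these 7 families, plexins included, the groups did not overlap. Without Pcif1fl/fl replicate 3 the ratios were 0.708 for the Slits and 0.913 for the Robo receptors. These sums are descriptions and were not tested.

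**Figure D3:**
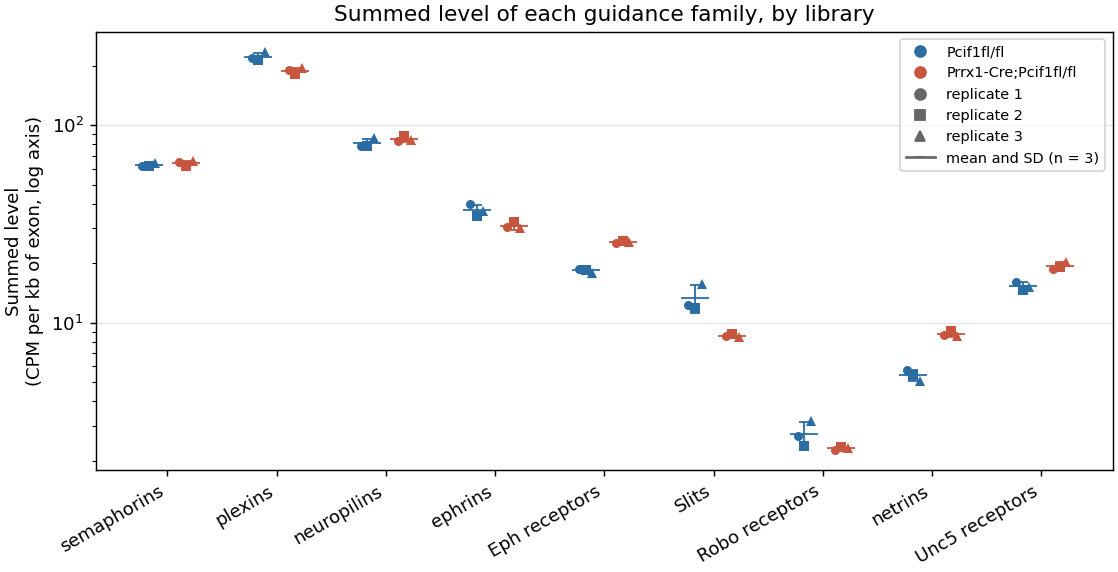
Summed level of each guidance family in every library, in TMM-scaled CPM per kb of exon on a log axis, with the mean and SD of 3 libraries per group. Eph receptors, netrins and Unc5 receptors lie higher in the 3 Prrx1-Cre;Pcif1fl/fl libraries, plexins, ephrins, Slits and Robo receptors lie lower, and semaphorins and neuropilins overlap.

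Guidance genes outside these families were also called in both directions, and their counts stand beside the 7.40% of all genes called. Of 33 further ligands and receptors, 31 were in the table and 26 were tested, of which 3 were lower and 1 higher, with a median log2 fold change of -0.16. Neo1, which encodes the netrin receptor neogenin, was at 70.1, 62.0 and 90.1 CPM in the controls and 44.7, 46.3 and 46.3 CPM with Prrx1-Cre (log2 fold change -0.69, SE 0.14, edgeR adjusted p = 0.0204). Draxin, a secreted ligand of Dcc, was lower by a log2 fold change of -1.12 and Itga1, an integrin subunit, by -1.58. Nrcam, a cell adhesion molecule that associates with neuropilins, was higher at 0.85. Of 63 genes listed as cytoplasmic effectors or partners of these receptors, 59 were tested, of which 3 were lower and 4 higher, with a median of 0.048. Mical3 fell by 0.99 and Mical2 rose by 0.56 on the log2 scale (edgeR adjusted p = 0.00113 and 0.00450), both members of the family of actin oxidases that act below plexins. Dpysl3, of the collapsin response mediator family that acts below Sema3a, fell by 0.52 (edgeR adjusted p = 0.00594), as did the transmembrane protein Plxdc2, by 0.64. Chn2, Abl2 and Ablim1 were higher by log2 fold changes of 0.73, 0.49 and 0.58.

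Several guidance genes are also markers of vessels, nerves or myeloid cells, so the markers of these cells are given beside them, to be read against the 7.40% of all genes called in either direction. Of 9 macrophage markers 1 was higher, Fcgr1, and 0 were lower by edgeR, DESeq2 or limma-voom. Csf1r was lower without overlap (log2 fold change -0.26, edgeR adjusted p = 0.141), whereas Cd14, Itgam and Adgre1 were higher without overlap (0.67, 0.45 and 0.24, edgeR adjusted p = 0.0718, 0.0645 and 0.398). Of the whole macrophage list the median was 0.18 and the summed level overlapped between groups. Of 8 endothelial markers 0 were called by edgeR at an adjusted p under 0.05. At an unadjusted p under 0.05 Cdh5 was lower and Vwf higher, and DESeq2 called Cdh5 lower. The sum of the 8 markers was 32.3 to 45.0 CPM in the controls and 29.9 to 35.2 CPM with Prrx1-Cre, so that the groups overlapped. Of 8 neuronal and Schwann cell markers 4 were tested, of which S100b was lower and Tubb3 higher, and their sum, led by Mbp, was 81.1 to 96.5 CPM against 73.1 to 90.6 CPM. Rbfox3, a marker of neurons, was at 3 counts or fewer in every library. The 6 osteoclast markers summed to 87.7 to 124 CPM in the controls and 134 to 145 CPM in the other group, led by Ctsk, with no overlap, although 0 of the 3 tested were called by edgeR, DESeq2 or limma-voom and Ctsk alone was higher at an unadjusted p under 0.05. Of 5 lymphoid markers only 2 were in the count table, and they stood at 0.175 CPM or under in sum and were not tested. Of 8 mesenchymal markers 3 were lower, Lepr by a log2 fold change of -2.72, Cxcl12 by -2.44 and Pdgfra by -0.42 (edgeR adjusted p = 0.000131, 5.23e-05 and 0.0244). Another 3 were higher, Col1a1 at 0.61, Col1a2 at 0.64 and Thy1 at 1.52 (edgeR adjusted p = 0.0154, 0.0322 and 0.0113). Their sum, led by Col1a1 and Col1a2, was 10368 to 13169 CPM in the controls and 13189 to 14036 CPM in the other group, without overlap. Of 7 osteoblast markers tested 3 were called lower, Sp7 by a log2 fold change of -1.88, Ibsp by -1.25 and Alpl by -1.11 (edgeR adjusted p = 0.000432, 0.000585 and 0.000464), and Col1a1 was called higher. Runx2 was lower without overlap as well but was not called (log2 fold change -0.41, edgeR adjusted p = 0.239). The sums of the osteoblast list, led by Spp1 and Col1a1, overlapped. The part of any of these cell types in the changes of the guidance genes was not tested.

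Across the 14 alternative analyses, each of the 21 called members kept its direction in all 294 values. They stayed called in 233 of these. Epha2, Epha3, Ntn4, Plxnd1, Sema4a, Sema5a, Sema6d and Slit2 were called under every alternative. Leaving out Pcif1fl/fl replicate 3, the library that stood apart, left all 21 called and added Plxnc1, Sema3c, Sema3e, Sema4d, Unc5c and Unc5d, for a total of 13 lower and 14 higher members.

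**Figure D4:**
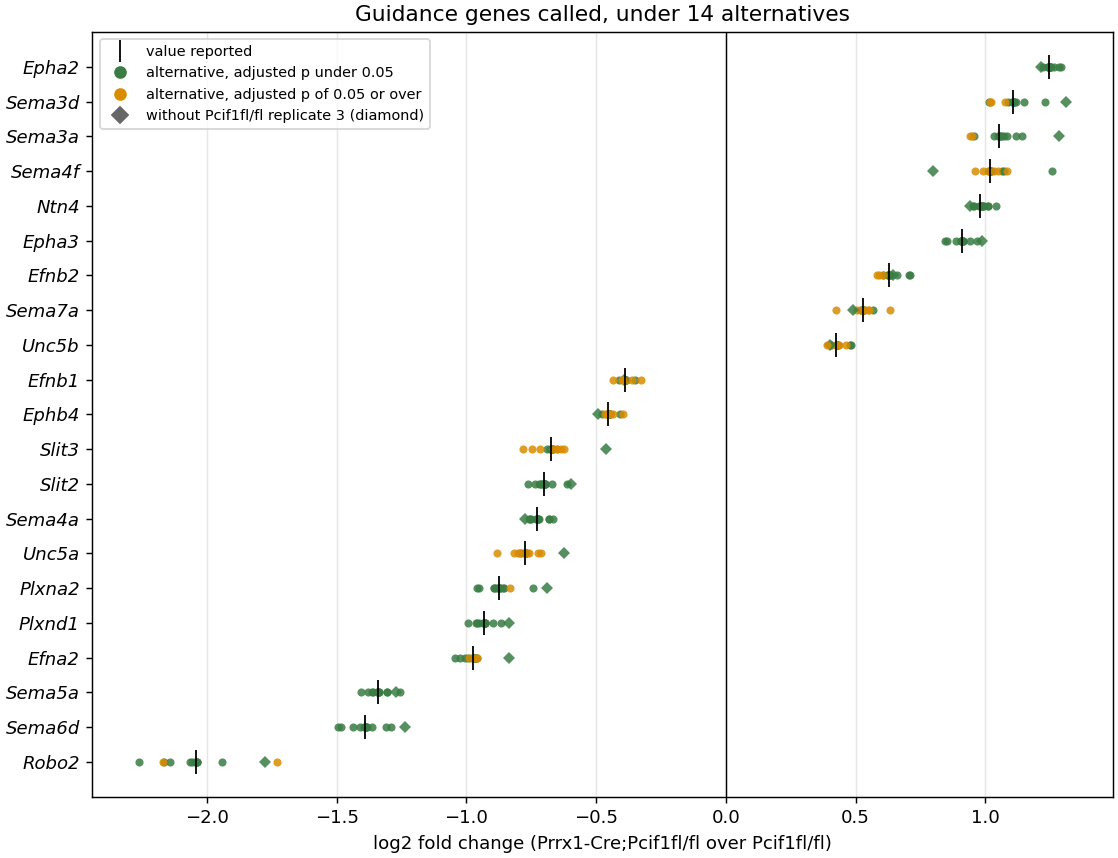
Log2 fold change of the 21 called guidance genes under 14 alternative analyses, with the reported value as a black line; green points keep an adjusted p under 0.05, orange points do not, and diamonds leave out Pcif1fl/fl replicate 3. No point crosses 0, and 8 genes, among them Epha2, Sema5a and Ntn4, have green points only.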

How the data were processed

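Poly(A) RNA of 3 libraries per group was sequenced by the authors, mapped to mm10 with HISAT2 and deposited as raw counts per gene. How the reads were counted (tool, annotation, strand) is not given in the sources used here, so reads of antisense partners may be included. Of 20163 rows, 92 repeat an ID with the same counts and were used once. Counts were fitted with edgeR 4.0.16 in R 4.3.3 (filterByExpr, TMM, glmQLFit, glmQLFTest, no covariate) over the whole table, with standard errors taken as the log2 fold change over the square root of F. Positions, exon lengths and overlaps are from GENCODE M21 (GRCm38), where 20059 of the 20071 IDs were found. Errors cover counting and spread between libraries, and duplicates by PCR could not be told from separate molecules. With 3 against 3, an exact permutation test cannot go below p = 0.1, and single values are printed beside their spread.

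The members, the lists of related and cell-type genes and the tests were chosen with earlier results of these data known. Members were named if they were Sema3a or Ephb4, had an adjusted p under 0.05, had the highest level per kb or the smallest p of their family, or lay on chromosome X; Slit1, Sema3c, Sema3e, Sema3g, Plxna4, Plxnc1, Epha7, Robo4, Ntn1, Ntn3, Unc5c, Unc5d and the genes named from the related lists were added after their values were seen. Alternatives were DESeq2 1.42.0, RLE and total-count scaling, limma-voom (limma 3.58.1), no filter, a mean of at least 10 counts, the replicate number as a block, an adjusted p under 0.01, leaving out each library, and, added after seeing the data, a GC and length correction (splines with 5 degrees of freedom). The fits were tested on simulated counts. Same-numbered libraries did not deviate together (correlations 0.085, -0.057 and 0.0031 over 11816 genes), so the numbers were not used as pairs.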

Additional observations from a re-analysis of the deposited data

How the results depend on the processing

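The numbers of lower and higher members past 2-fold, 3 and 4, were 3 or 4 and 3 to 5 under every change of tool, scaling or filter and with the GC and length correction. At any fold, 12 lower and 9 higher members became 13 and 10 with DESeq2, 13 and 7 with total-count scaling, 10 and 9 with limma-voom and 10 and 11 with the GC and length correction. With the replicate number as a block, which the pairing check gave no ground for, 8 were lower and 6 higher, and Efnb1, Ephb4, Sema4f, Sema7a, Slit3, Unc5a and Unc5b lost their call. At an adjusted p under 0.01, 1 member was higher past 2-fold, and 6 were lower and 3 higher at any fold. Leaving out 1 library at a time gave 2 to 4 lower and 1 to 4 higher members past 2-fold, 6 to 13 lower and 3 to 14 higher at any fold, a median over the members of -0.066 to 0.046, and over all genes 253 to 385 lower and 89 to 229 higher past 2-fold. The most calls at any fold, 27, came without Pcif1fl/fl replicate 3, and the fewest, 9, without Prrx1-Cre;Pcif1fl/fl replicate 2. Nrp2, which was not called, changed sign without Pcif1fl/fl replicate 1 (log2 fold change -0.0015, and up to 0.0997 without another library). Among the called members Robo2 held the fewest counts, down to 7 in a library, and of the 6 members that were not tested Epha8 and Ephb1 were at the floor of 3 counts.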

Other observations

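The level of a ligand was set against that of a receptor or co-receptor from its partner family for 4 pairs picked after the values of their members were seen. They are given as ratios of CPM per kb within a library, with no test, and binding within a pair was not measured. Efnb2 over Ephb4 was 0.407, 0.399 and 0.454 in Pcif1fl/fl and 0.778, 0.943 and 0.944 in Prrx1-Cre;Pcif1fl/fl, since the ligand was higher and the receptor lower in the second group. Sema3a over Nrp1 averaged 0.0359 ± 0.00836 (SD, n = 3) in the controls and 0.0682 ± 0.00281 in the other group, so that the ligand stayed far below its co-receptor in both. Ntn4 over Unc5b averaged 0.270 ± 0.0174 and 0.397 ± 0.0296. Slit2 over Robo1 went the other way, from 2.24 ± 0.0664 to 1.59 ± 0.0883. None of these ratios overlapped between the groups, which follows in part from how the pairs were picked.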
